A study of Homo sapiens with 8 samples.

Results

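Among the human zinc finger genes named ZNF followed by a number, the weakly detected ones were followed in RKO cells, a human colon carcinoma line, after 5-Aza-CdR and after siRNA against SRCAP. Members were chosen by their detection: a probe of such a gene entered if its signal stood above the negative control beads of the array (detection p under 0.01) on at least 2 and at most 7 of the 8 arrays. This gave 84 probes of 75 genes, out of 583 probes of 416 ZNF genes on the array. Of the others, 139 probes were detected on 0 arrays, 16 on 1 array and 344 on all 8 arrays. The choice used measured values, so the detection of a member is a description and no result.

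RNA was measured on Illumina HumanWG-6 v3 bead arrays, with 2 arrays for each of 4 groups. RKO cells carried siRNA against SRCAP (SRCAP siRNA) or a non-target siRNA (NC siRNA), both at 100 nM for 24 h, and then received 1 µM 5-Aza-CdR or PBS. Drug or PBS lasted 72 h by the labels and less by the study's methods, and the values cannot settle which. 5-Aza-CdR (decitabine) is a cytosine analogue that traps DNA methyltransferases, so that methylation is lost as cells divide. SRCAP is the ATPase of a remodelling complex that places the histone variant H2A.Z into nucleosomes, and the comparisons ask whether genes switched on by the drug depend on it.

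Most ZNF genes encode proteins with tandem C2H2 zinc fingers, and many carry a KRAB domain. A KRAB domain binds TRIM28, which brings in the H3K9 methyltransferase SETDB1, HP1 proteins and, at some sites, DNA methylation, and so silences the DNA that the fingers recognise. A large share of these genes lies in clusters on chromosome 19, and many are silenced by promoter methylation in carcinomas. ZNF274, a KRAB zinc finger protein, binds the 3′ ends of other ZNF genes and recruits SETDB1 there. A name alone does not make a member of this class: ZNF185, for one, is a LIM domain protein of the actin cytoskeleton.

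Each array detected 17838 to 19767 probes, or 36.6% to 40.5%, with the highest number on the second SRCAP siRNA array with 5-Aza-CdR, and replicates correlated at r = 0.983 to 0.993 across probes. The detected SRCAP probe had 6.73 and 6.46 log2 signal in SRCAP siRNA cells with 5-Aza-CdR, against 6.83 and 7.16 in NC siRNA cells with 5-Aza-CdR. Under PBS it had 6.58 and 6.58 in SRCAP siRNA cells, against 7.19 and 7.07 in NC siRNA cells, so both SRCAP siRNA groups lay below both NC siRNA groups. Of 7 markers of colon epithelial carcinoma, EPCAM, KRT8, KRT18 and CDX2 were detected on all 8 arrays, whereas KRT19, CDH1 and VIL1 were detected on 0. None of 7 fibroblast markers was detected on any array. Among the blood markers CD14 was detected on 5 arrays, and among the endothelial markers PECAM1 on 8, and 4 and 3 further markers on 0. The summed linear signal of the blood markers was 197 to 201 with 5-Aza-CdR against 149 to 173 with PBS in SRCAP siRNA cells, and 210 to 249 against 160 to 162 in NC siRNA cells. That of the epithelial markers was 6816 to 7114 with the drug against 4786 to 5214 with PBS in SRCAP siRNA cells, and 7784 to 11614 against 6221 to 8131 in NC siRNA cells. The blood marker sums were higher with the drug than with PBS in cells with either siRNA. The epithelial sums were higher with the drug than with PBS in SRCAP siRNA cells, and overlapped between drug and PBS in NC siRNA cells. Their part in the results was not tested. RNA was taken from whole cultures, in which fewer cells of a type and less RNA per cell cannot be told apart.

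The promoters of the 3 members highest after the drug beside ZNF274, of ZNF274 itself, and of ZNF695, the member with the lowest mean drug change among those with a single RefSeq window, are shown because 5-Aza-CdR acts on CpG methylation. Each is 300 bases, from 250 before to 50 after the annotated start, 5′ to 3′ on the strand of the gene, from RefSeq on GRCh38.p14, with every CG in capitals. They lie at chr19:58182811-58183110 (plus strand) for ZNF274, chr19:57613992-57614291 (plus) for ZNF134, chr19:57727575-57727874 (minus) for ZNF671, chr19:57947657-57947956 (minus) for ZNF256 and chr1:247008008-247008307 (minus) for ZNF695.
ZNF274: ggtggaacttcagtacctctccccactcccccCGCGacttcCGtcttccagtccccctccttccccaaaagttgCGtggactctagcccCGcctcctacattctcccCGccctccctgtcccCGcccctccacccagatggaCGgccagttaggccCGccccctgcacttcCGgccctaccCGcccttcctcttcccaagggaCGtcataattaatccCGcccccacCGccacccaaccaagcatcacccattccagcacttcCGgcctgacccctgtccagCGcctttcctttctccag
ZNF134: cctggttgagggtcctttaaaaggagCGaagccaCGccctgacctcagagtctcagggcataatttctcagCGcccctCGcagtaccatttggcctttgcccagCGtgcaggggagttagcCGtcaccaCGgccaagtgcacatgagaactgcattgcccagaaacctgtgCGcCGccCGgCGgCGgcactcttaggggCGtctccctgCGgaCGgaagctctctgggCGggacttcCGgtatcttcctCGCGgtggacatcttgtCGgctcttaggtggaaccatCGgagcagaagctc
ZNF671: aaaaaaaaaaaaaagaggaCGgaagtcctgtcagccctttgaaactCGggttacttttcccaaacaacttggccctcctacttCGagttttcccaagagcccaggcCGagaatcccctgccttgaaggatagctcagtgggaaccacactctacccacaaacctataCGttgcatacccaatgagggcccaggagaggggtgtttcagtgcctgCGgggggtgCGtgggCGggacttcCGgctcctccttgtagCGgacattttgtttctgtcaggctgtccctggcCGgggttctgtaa
ZNF256: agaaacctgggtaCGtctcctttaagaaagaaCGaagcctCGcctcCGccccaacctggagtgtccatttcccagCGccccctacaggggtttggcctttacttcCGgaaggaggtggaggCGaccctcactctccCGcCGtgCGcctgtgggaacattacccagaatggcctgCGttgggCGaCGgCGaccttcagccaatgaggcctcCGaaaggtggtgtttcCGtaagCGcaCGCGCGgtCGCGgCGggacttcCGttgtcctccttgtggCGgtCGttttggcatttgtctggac
ZNF695: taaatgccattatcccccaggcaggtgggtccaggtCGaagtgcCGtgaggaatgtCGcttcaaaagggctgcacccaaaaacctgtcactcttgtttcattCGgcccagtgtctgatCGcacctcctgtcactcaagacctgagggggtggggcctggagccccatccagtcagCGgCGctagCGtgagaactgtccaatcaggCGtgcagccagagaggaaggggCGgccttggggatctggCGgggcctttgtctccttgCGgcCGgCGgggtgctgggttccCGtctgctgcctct

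These windows held 16, 21, 11, 26 and 15 CG, in that order. The share of the 35116 promoter windows of this table with at least as many was 47.5%, 39.5%, 54.7%, 30.1% and 48.9%, in the same order. A window was found for 66 of the 75 genes. A gene with several windows was counted by the window with the most CG, which favours genes with many windows. The median number of CG was 20 (6 to 34) in the 15 genes called higher after the drug, against 24 (9 to 53) in the 51 member genes that were not called. All ZNF genes had a median of 22 and all genes one of 16. CG is its own reverse complement, so 1 strand was counted, and methylation was not analysed here.

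All 3 probes of ZNF274 were high on every 5-Aza-CdR array and undetected on every PBS array. ZNF274 was chosen for this response, so its values are given with no test. On the brightest probe (ILMN_1688629) the log2 signals in SRCAP siRNA cells were 10.71 and 10.59 with 5-Aza-CdR against 4.75 and 4.79 with PBS. In NC siRNA cells they were 10.33 and 10.59 with 5-Aza-CdR against 4.63 and 5.00 with PBS. Each drug array stood far above each PBS array, whichever siRNA was used. The raw bead signals of this probe in SRCAP siRNA cells were 1896.6 and 1959.5 with the drug, against 116.5 and 127.3 with PBS. In NC siRNA cells they were 1297.5 and 1448.2 with the drug, against 109.6 and 145.3 with PBS.

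Because a probe undetected in a group has only an upper limit there, its fold is a bound. It sets the mean of the brighter group against the mean, over the dim arrays, of the higher of the lowest detected signal and the signal of the probe itself. The bound holds only on the scale of the processing used here, and changes in the authors' own normalized table can lie below it. By this bound ZNF274 was at least 31.0-fold higher with 5-Aza-CdR than with PBS in SRCAP siRNA cells and at least 28.1-fold higher in NC siRNA cells on that probe. Another probe (ILMN_2352574) had 8.79 and 8.56 with the drug against 4.63 and 4.46 with PBS in SRCAP siRNA cells, a bound of at least 7.89-fold. It had 8.21 and 8.43 against 4.58 and 4.51 in NC siRNA cells, a bound of at least 6.38-fold. The last probe (ILMN_1714274) moved less, with 6.74 and 6.37 against 4.91 and 5.01 in SRCAP siRNA cells and 6.15 and 6.14 against 5.25 and 4.95 in NC siRNA cells. Its bounds were at least 1.82-fold and at least 1.42-fold. The size of the change depended on the processing: the brightest probe differed by 5.88 log2 units in SRCAP siRNA and 5.64 in NC siRNA cells here, but by 3.08 and 2.92 in the authors' own normalized table. The drug change was larger in SRCAP siRNA than in NC siRNA cells on all 3 probes, by 0.24, 0.35 and 0.55 log2 units, with standard errors of 0.32, 0.30 and 0.32, and 0 probes of any gene passed the test of this difference by limma.

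**Figure D1:**
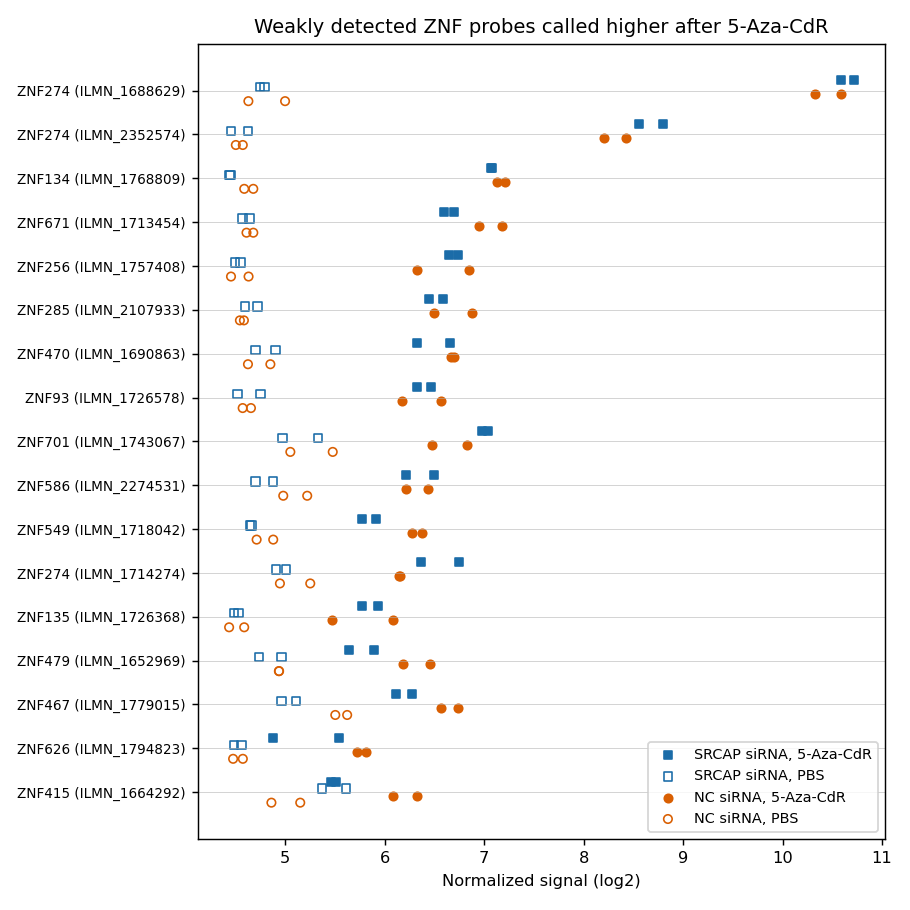
Normalized log2 signal (x axis) on each of the 8 arrays for the 17 member probes called higher after 5-Aza-CdR, 1 row per probe, with filled symbols for 5-Aza-CdR and open symbols for PBS, squares for SRCAP siRNA and circles for NC siRNA. The 2 upper rows, both of ZNF274, reach above 8 on every drug array, and in the row of ZNF415 the drug arrays of SRCAP siRNA cells lie among their PBS arrays.

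After 5-Aza-CdR a small group of members was called higher and none lower at an adjusted p under 0.05 (limma over 20328 probes, Benjamini-Hochberg within each contrast, two-sided). In SRCAP siRNA cells 14 of the 84 probes (16.7%), of 12 genes, were called higher, against 1.86% of all probes tested and 5.74% of the 4633 other probes detected on 2 to 7 arrays. With NC siRNA 17 probes (20.2%), of 15 genes, were called higher, against 2.66% of all probes and 9% of the others detected on 2 to 7 arrays. The 14 were all among the 17. Without the 3 ZNF274 probes the counts were 11 of 81 in SRCAP siRNA and 14 of 81 in NC siRNA cells. None of the 17 was detected on a PBS array, and a probe that entered through the drug arrays alone had to differ, so these counts describe the members and do not support a difference. Such probes numbered 18, and for them the values on each array and the bound are given as a description, with no p. The one of the 18 not called was ZNF560, which was called with both siRNAs when the slide entered as a block. With that block 16 members were called higher in SRCAP siRNA and 18 in NC siRNA cells, against 2.49% and 3.21% of all probes. The counts fell to 9 in SRCAP siRNA cells without their first 5-Aza-CdR array and to 10 in NC siRNA cells without their second PBS array. They were 7 and 8 without background correction, and 4 and 5 in the authors' own normalized table. The share of all probes called is not given here for these settings or for leaving out an array. The lower counts are therefore no result about the members.

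ZNF134 stood next after ZNF274. Its log2 signals were 7.08 and 7.07 with 5-Aza-CdR against 4.45 and 4.44 with PBS in SRCAP siRNA cells, and 7.13 and 7.21 against 4.68 and 4.59 in NC siRNA cells. The drug and PBS arrays were far apart, and replicates lay close together. It was at least 2.60-fold higher with the drug in SRCAP siRNA and at least 2.87-fold higher in NC siRNA cells. The log2 difference was 2.63 and 2.53 here, and 0.78 and 0.72 in the authors' table.

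ZNF671, whose promoter methylation is used as a marker in cervical cancer, had 6.60 and 6.70 with the drug against 4.57 and 4.64 with PBS in SRCAP siRNA cells. In NC siRNA cells it had 6.95 and 7.18 with the drug against 4.61 and 4.68 with PBS. It was at least 1.93-fold higher in SRCAP siRNA and at least 2.68-fold higher in NC siRNA cells. ZNF256, which can bind TRIM28, had 6.65 and 6.73 with the drug against 4.50 and 4.55 with PBS in SRCAP siRNA cells. With NC siRNA its signals were 6.33 and 6.85 with the drug against 4.63 and 4.46 with PBS. Its drug arrays with NC siRNA were the least alike of its groups, yet both lay above all 4 PBS arrays. The bounds were at least 2.00-fold in SRCAP siRNA and at least 1.92-fold in NC siRNA cells.

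ZNF93, a KRAB zinc finger protein that represses LINE-1 retrotransposons, had 6.33 and 6.47 with the drug against 4.75 and 4.52 with PBS in SRCAP siRNA cells. It had 6.57 and 6.18 against 4.66 and 4.57 in NC siRNA cells. It was at least 1.63-fold higher in SRCAP siRNA and at least 1.66-fold higher in NC siRNA cells. The other members called higher with both siRNAs were ZNF285, ZNF470, ZNF701, ZNF586, ZNF549, ZNF135 and ZNF467. Their bounds ran from 1.11-fold (ZNF549 and ZNF135) to 2.49-fold (ZNF701) in SRCAP siRNA cells, and from 1.09-fold (ZNF135) to 2.06-fold (ZNF285) in NC siRNA cells.

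ZNF479, ZNF626 and ZNF415 passed the threshold in NC siRNA cells only, which does not show a difference between the siRNAs, and with the slide as a block ZNF479 passed in SRCAP siRNA cells too. ZNF415, of which isoforms can inhibit p53- and AP-1-dependent transcription, had 5.46 and 5.52 with the drug against 5.37 and 5.61 with PBS in SRCAP siRNA cells, where the arrays overlapped. In NC siRNA cells it had 6.32 and 6.09 with the drug against 5.15 and 4.86 with PBS, with no overlap. It was at least 1.47-fold higher with the drug in NC siRNA cells. The drug change with SRCAP siRNA minus that with NC siRNA, -1.20 ± 0.31 (log2 ± SE), did not pass the test by limma. ZNF479 was at least 1.05-fold higher in SRCAP siRNA and at least 1.60-fold higher in NC siRNA cells, and ZNF626 at least 1.08-fold higher in NC siRNA cells.

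Probes of the same genes that the detection rule left out gave a measure it did not use. For ZNF586, 2 further probes detected on all 8 arrays rose by 2.67 and 2.60 in SRCAP siRNA cells (adjusted p = 6.79e-05 and 8.25e-05 by limma) and by 2.54 and 2.52 in NC siRNA cells (adjusted p = 6.84e-05 and 7.37e-05). These were the only 2 of the 344 ZNF probes detected on all 8 arrays that were called in either drug contrast. For ZNF549 a probe detected on all 8 arrays had a drug change of -0.09 in SRCAP siRNA and 0.17 in NC siRNA cells, and for ZNF626 one of -0.02 and -0.03, with no call, so different probes of 1 gene disagreed. Another ZNF626 probe (ILMN_2400661), detected on 1 array and not tested, was higher with the drug. Its mean log2 signals were 5.15 with the drug against 4.54 with PBS in SRCAP siRNA cells, and 5.58 against 4.63 in NC siRNA cells.

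Most other members lay near no change. The median log2 change of all 84 probes was 0.04 in SRCAP siRNA cells (-0.15 on the first slide and 0.23 on the second) and -0.11 in NC siRNA cells (-0.05 and -0.14), against -0.03 and -0.06 over all probes tested. Of all probes 0.0295% were called lower in SRCAP siRNA and 0.0541% in NC siRNA cells, and of the 84 members 0 in either, by limma. At an unadjusted p under 0.05, in either direction, there were 24 members in SRCAP siRNA and 22 in NC siRNA cells, of which 17 and 18 had entered through the drug arrays only. Among the other 66 members there were 7 (10.6%) and 4 (6.06%), against 7.78% and 8.16% of all probes. With the slide as a block 2 members, ZNF420 and ZNF695, were called lower in SRCAP siRNA cells, against 0.271% of all probes, and 0 in NC siRNA cells.

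The lowest values in SRCAP siRNA cells were those of ZNF420, a KRAB protein that restrains p53, and of ZNF695 at -0.91 ± 0.37 (adjusted p = 0.544 by limma, and 0.0373 with the block). ZNF420 had 5.29 and 5.26 with the drug against 6.29 and 6.10 with PBS in SRCAP siRNA cells. These 2 PBS arrays were the only ones that detected it, so it entered through them alone, had to be lower with the drug there, and its call with the block supports nothing. It was at least 1.57-fold lower with the drug in these cells. With NC siRNA the lowest were a probe of ZNF580 (ILMN_1715065) at -0.94, ZNF607 at -0.87 and ZNF331, an imprinted gene on chromosome 19, at -0.85, none past the test. The ZNF580 probe was undetected with the drug there, a bound of at least 1.39-fold lower. ZNF331 had 6.12 and 6.08 with the drug against 6.74 and 6.63 with PBS in SRCAP siRNA cells, and 6.65 and 5.55 against 7.20 and 6.69 in NC siRNA cells. Its drug arrays lay below its PBS arrays with either siRNA.

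**Figure D2:**
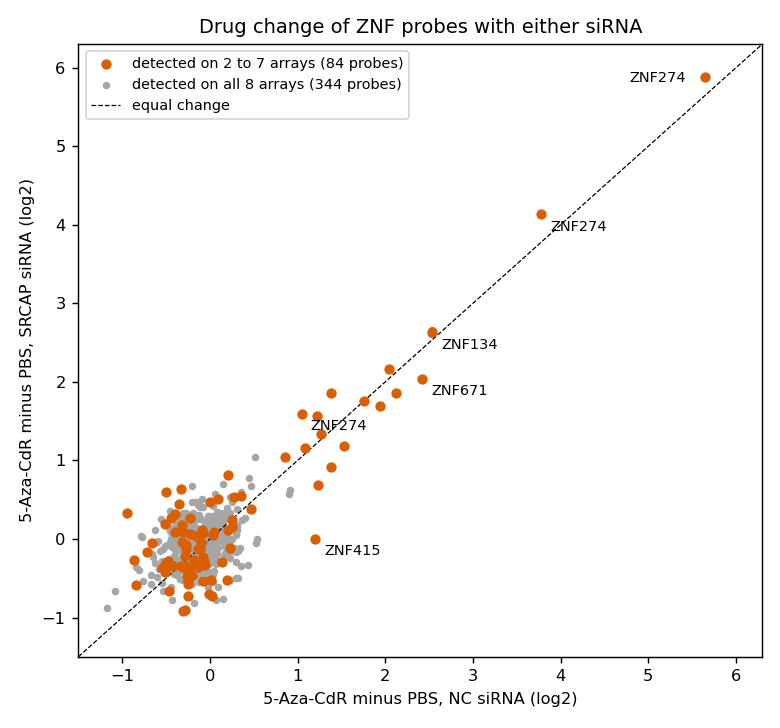
Difference of 5-Aza-CdR minus PBS, in log2, in SRCAP siRNA cells (y axis) and NC siRNA cells (x axis) for the 84 members and, in grey, the 344 ZNF probes detected on all 8 arrays, with a dashed line of equal change. The brightest ZNF274 probe lies at 5.88 in SRCAP siRNA and 5.64 in NC siRNA cells, ZNF415 lies far below the line, and most members lie near 0 on both axes.

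Whether the drug effect depended on SRCAP was asked by subtracting the drug change with NC siRNA from that with SRCAP siRNA. By limma 0 of the 84 members passed, as did 0% of all probes, with the slide as a block also 0, while 4 members (4.76%) had an unadjusted p under 0.05, against 2.45% of all probes. The median difference over the members was 0.07 (-0.15 on the first slide and 0.23 on the second), against 0.04 over all probes. The highest were one probe of ZNF580 (ILMN_1715065) at 1.27 ± 0.50 and ZNF284 at 1.10 ± 0.47, and the lowest was ZNF415. That ZNF580 probe was detected only on 1 NC siRNA array with PBS and 2 SRCAP siRNA arrays with 5-Aza-CdR. Both groups raise this difference, so the choice by detection favoured a value above 0 and it supports nothing. The other member probe of ZNF580 (ILMN_1653310) had 0.01, and a probe of it detected on all 8 arrays (ILMN_1688565) had -0.84, so the probes of this gene disagreed.

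The 13 member probes, of 11 genes, that were detected on all 4 drug arrays and no PBS array were set beside the 283 other probes with this pattern. The difference was above 0 for 9 of the 13 members, with a median of 0.09. Those above 0 included every probe of ZNF274 (0.24, 0.35 and 0.55), a single gene chosen for its response. Of the other probes 69 were above 0 and 214 below, with a median of -0.38. Zinc finger genes among these others included ZIK1 (-0.72), ZFP3 (-0.69), ZFP42 (-0.18), ZSCAN18 (-0.18) and ZFP82 (0.07). Of those named only ZFP82 lay above 0. The contrast is not shown to be particular to ZNF genes, which was not tested. The median drug change with NC siRNA was 1.94 for the members and 2.52 for the others, and with SRCAP siRNA 1.86 and 1.99. The medians stand on either side of 0, and the difference between the sets was not tested.

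**Figure D3:**
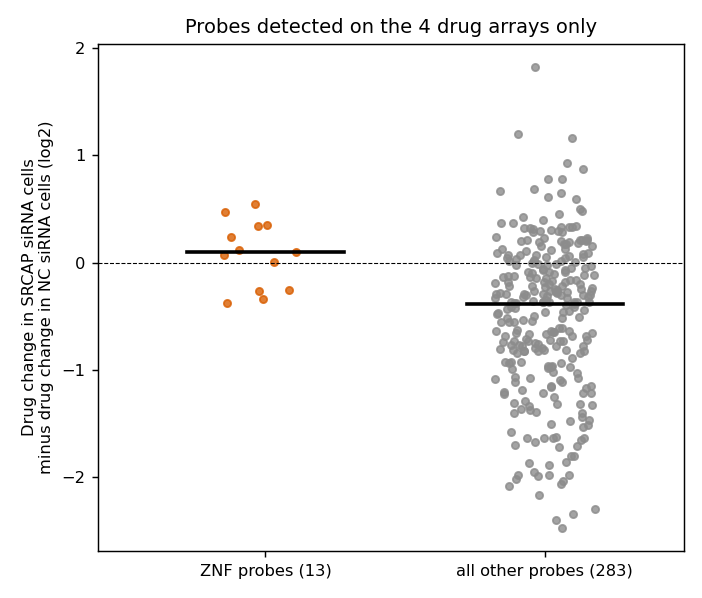
Drug change with SRCAP siRNA minus drug change with NC siRNA (y axis, log2) for the probes detected on the 4 drug arrays only, 1 point per probe, with the 13 ZNF members on the left, the 283 other probes on the right and bars at the medians. The members spread between -0.38 and 0.55, while the others reach from -2.48 to 1.83.

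No member passed the test for a change after SRCAP siRNA. Under 5-Aza-CdR 0 of 84 were called by limma, against 0.305% of all probes and 1.1% of the other probes detected on 2 to 7 arrays, with 8 members (9.52%) at an unadjusted p under 0.05, against 13.2% of all probes. Under PBS 0 of 84 were called, against 0.00984% of all probes, with 5 members (5.95%) at an unadjusted p under 0.05, against 6.76%. With the slide as a block 1 member was called lower in each, ZNF695 under 5-Aza-CdR, where 4.1% of all probes were called lower, and ZNF630 under PBS, where 0.256% were.

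ZNF630, a gene of the X chromosome, had 4.92 and 4.80 in SRCAP siRNA cells against 6.24 and 6.01 in NC siRNA cells under PBS on ILMN_1779341. The arrays of the siRNA groups did not overlap. The probe was undetected on both SRCAP siRNA arrays with PBS, so its difference there is a bound of at least 1.35-fold lower (adjusted p = 0.233 by limma, 0.0393 with the block). Under 5-Aza-CdR the same probe had 5.27 and 5.72 against 5.92 and 5.67, where the groups overlapped. Its other probe, ILMN_2172124, was undetected on all 4 SRCAP siRNA arrays. It entered through NC siRNA arrays alone and had to be lower with SRCAP siRNA, so its values support nothing. By the bound it was at least 1.56-fold lower in SRCAP siRNA cells under 5-Aza-CdR and at least 1.18-fold lower under PBS, neither past the test. ZNF695 had 5.51 and 6.10 in SRCAP siRNA cells against 6.48 and 6.88 in NC siRNA cells under 5-Aza-CdR, a difference of -0.87 ± 0.37 (adjusted p = 0.358 by limma, 0.0336 with the block).

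The largest positive differences under PBS were those of ZNF420 and of ZNF711, at 1.01 ± 0.30. ZNF420, which the SRCAP siRNA arrays with PBS alone detected, was there at least 1.46-fold higher than in NC siRNA cells, as the choice of members required. ZNF711, an X-linked protein that acts with the demethylase PHF8, had 6.62 and 6.49 in SRCAP siRNA cells against 5.96 and 5.12 in NC siRNA cells. ZNF711 did not pass the test (adjusted p = 0.511 by limma). Under 5-Aza-CdR the highest was ZNF92, at 0.99 ± 0.41, which did not pass either. ZNF274 differed by 0.19, 0.36 and 0.41 between the siRNAs under 5-Aza-CdR on its 3 probes, and by -0.05, 0.00 and -0.14 under PBS.

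**Figure D4:**
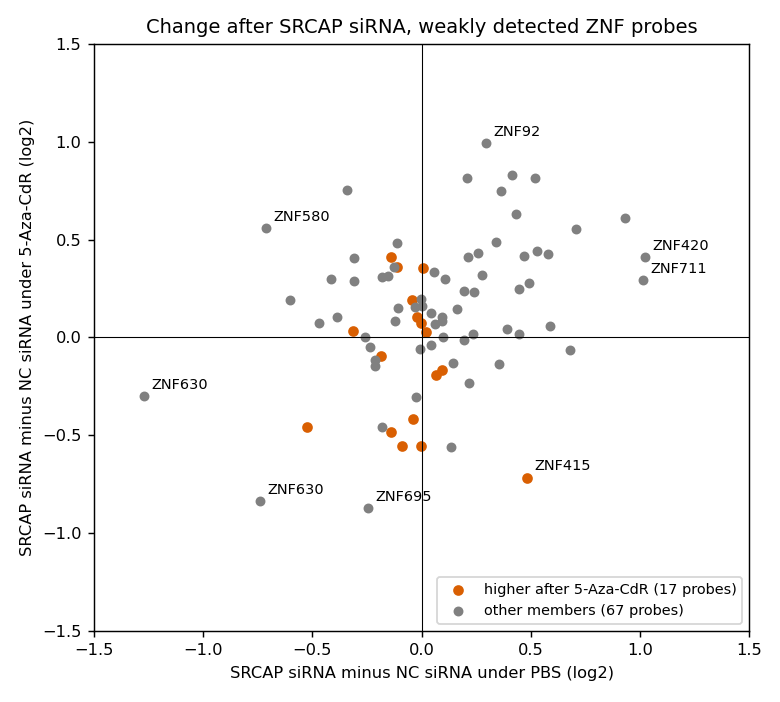
SRCAP siRNA minus NC siRNA under 5-Aza-CdR (y axis) and under PBS (x axis), in log2, for the 84 member probes, with the 17 probes called higher after 5-Aza-CdR in orange and the other 67 in grey. ZNF630 lies lowest under PBS at -1.27 and ZNF92 highest under 5-Aza-CdR at 0.99.

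Chromosome 19 carried 45 of the 84 member probes, of 40 genes, and 15 of the 17 called higher after the drug, the other 2 being ZNF479 and ZNF467 on chromosome 7. With SRCAP siRNA 28.9% of the chromosome 19 members were called higher, against 4.91% of the 163 other chromosome 19 probes detected on 2 to 7 arrays. With NC siRNA the shares were 33.3% and 14.1%. All 17 entered through drug arrays alone, so these shares describe the members and support no difference. In the order of protein-coding genes of RefSeq, ZNF274 is followed by 20 genes to the end of chromosome 19. ZNF135, ZNF256, ZNF586, ZNF671, ZNF134, ZNF549 and ZNF470 lie 3, 7, 14, 16, 21, 26 and 51 genes before it. ZNF415, ZNF701, ZNF285, ZNF626 and ZNF93 lie between 175 and 817 genes before it. Of the 20 genes within 10 places of ZNF274, 11 were tested and 3 were called higher with at least 1 siRNA: ZNF256, ZNF135 and ZSCAN18, a zinc finger gene with a SCAN domain. ZSCAN18, undetected with PBS, was at least 11.3-fold higher in SRCAP siRNA and at least 17.7-fold higher in NC siRNA cells. The direct neighbours ZNF329 (-0.45 in SRCAP siRNA and 0.04 in NC siRNA cells) and ZNF544 (0.42 and 0.04) were detected on all 8 arrays and were not called.

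A wider window, from 60 places before ZNF274 to the end, was chosen after the values were seen and gets no test. It held 9 member genes, of which 8 were called higher with at least 1 siRNA and ZNF749 was not called, against 5 of 31 member genes on the rest of the chromosome. Over all tested ZNF genes the counts were 8 of 33 in the window and 5 of 127 on the rest. Of 13 other tested genes in the window 3 were called higher, AURKC, ZIK1 and ZSCAN18, against 24 of 636 on the rest. ZIK1, another zinc finger gene that was undetected with PBS, was at least 2.46-fold higher in SRCAP siRNA and at least 3.86-fold higher in NC siRNA cells. Genes called higher and genes that were not called were interleaved.

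**Figure D5:**
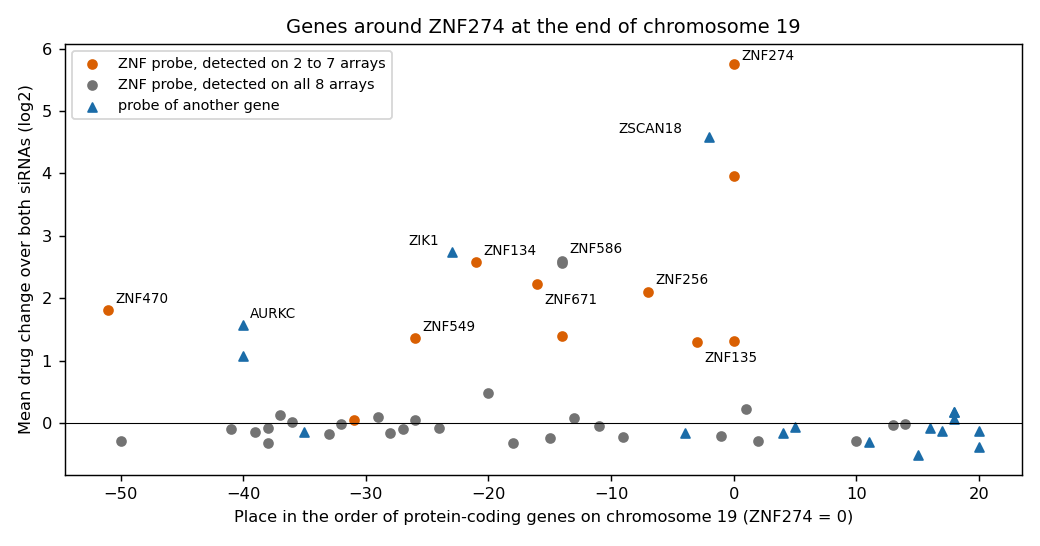
Mean drug change over both siRNAs (y axis, log2) by place in the order of protein-coding genes on chromosome 19 (x axis, ZNF274 at 0), 1 point per tested probe from 60 places before ZNF274 to the end. High points, with ZNF274 and ZSCAN18 uppermost, stand among ZNF probes detected on all 8 arrays that lie near 0.

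By the Pearson correlation with the brightest ZNF274 probe over the 8 arrays, the nearest members were ZNF134 (0.996), ZNF256 (0.992), ZNF285 (0.988), ZNF470 (0.987) and ZNF671 (0.987). Among all tested probes with 1 symbol the nearest were MAEL, SH2D5, MTERF1, TNFRSF6B and MAGEB2, at 0.998 to 0.999. MAEL acts in germline transposon silencing and MAGEB2 is a cancer-testis antigen. The 8 points fall into drug and PBS arrays, so these values mainly say that a probe separates them.

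Partners of KRAB zinc finger proteins were read from a list. All 27 listed corepressors, H3K9 methylation factors and DNA methyltransferases were measured. By limma 0 were called higher in SRCAP siRNA cells and 1 in NC siRNA cells, against 1.86% and 2.66% of all probes. In both, 0 were called lower, and the slide as a block gave the same counts. At an unadjusted p under 0.05, in either direction, there were 4 and 3, against 7.78% and 8.16% of all probes. The median changes of the 27 were -0.05 in SRCAP siRNA and -0.11 in NC siRNA cells. The one called was DNMT3A, a de novo DNA methyltransferase, with 0.95 ± 0.30 in SRCAP siRNA and 1.41 ± 0.30 in NC siRNA cells. Its probe was detected on the 4 drug arrays and on no PBS array. It entered the test through the drug arrays alone and had to be higher there, so its call supports nothing. By the bound it was at least 1.47-fold higher in SRCAP siRNA and at least 2.27-fold higher in NC siRNA cells. A further probe of DNMT3A had log2 changes of -0.34 and 0.36 and was not called. By the p of the mean drug change over both siRNAs, EHMT2, ATF7IP, SUV39H1 and SETDB1 came next after DNMT3A, all lower. EHMT2 had -0.83 in SRCAP siRNA and -0.26 in NC siRNA cells, ATF7IP -0.60 and -0.57, SUV39H1 -0.20 and -0.52, and SETDB1 -0.52 and -0.11. TRIM28, which lies 17 genes after ZNF274, had -0.50 in SRCAP siRNA and 0.25 in NC siRNA cells. None of these passed the test.

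The choice by detection left some members close to its limits. At the lower limit ZNF560 entered with a second lowest detection p of 0.00694, and ZNF70 stayed out with 0.0111. At the upper limit ZNF473, which acts in histone pre-mRNA processing, and ZNF268 entered with a highest detection p of 0.0125, and ZNF628 stayed out with 0.00837.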

How the data were processed

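Per the labels, BeadStudio 3.0.1 condensed the bead data to 1 value per probe and array. The deposited intensity is a mean bead signal without background correction or normalization. The deposited detection p-value sets each probe against the negative control beads. A table by the authors holds log2 values after spline normalization in lumi (version not given in the sources used here), and served as an alternative. A genome build is not given in the sources used here.

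Of 48805 lines, 2 duplicated IDs were left out, leaving 48801 probes. Signals went through neqc (normexp from the detection p-values, offset 16, quantile, log2; limma 3.58.1, R 4.3.3). The 20328 probes detected (p under 0.01) on at least 2 arrays were fitted with 1 coefficient per group (4 residual and 5.83 prior degrees of freedom). The fit was tested on simulated data with independent noise on each array. These lacked the likeness of arrays on one slide, so they cannot vouch for the p-values here. Calls needed an adjusted p under 0.05 (Benjamini-Hochberg within the contrast). Symbols came from the platform annotation at GEO. The number of arrays limits the precision.

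Members and lists were chosen with earlier results of these data known. Named members were all ZNF274 probes, the called ones, and the 12 highest and 8 lowest in each drug contrast and the 6 highest and 6 lowest in the others, from which examples are given. The labels name no separate cultures, so the p-values rest on a spread between arrays that may be technical. Replicate numbers follow the 2 number prefixes of the array names in the labels. These prefixes are read here as 2 slides, which the labels do not name as such. They pair the arrays, and deviations of arrays on one slide correlated at 0.00347 to 0.711. The slide as a block, other background, offset, scaling and detection settings, the authors' table and leaving out each array were tried. A lone array left in a group was assumed to vary like the other groups.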

Additional observations from a re-analysis of the deposited data

How the results depend on the processing

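The called drug changes kept their sign under every alternative run: of 399 values of called members, 315 were still called, 84 were not and 0 reversed, and the 96 drug values of ZNF274 were above 0. Their size did not hold: the brightest ZNF274 probe had 5.88 log2 units in SRCAP siRNA and 5.64 in NC siRNA cells, but 4.74 and 4.53 at an offset of 50, and 3.08 and 2.92 in the authors' table, and ZNF134 had 2.63 and 2.53, against 0.78 and 0.72 in that table. Members called higher after 5-Aza-CdR numbered 4 with SRCAP siRNA and 5 with NC siRNA in the authors' table, 7 and 8 without background correction, and 11 with NC siRNA at an offset of 50, against 14 and 17 as reported. For these settings and for leaving out an array, the share of all probes called is not given here. The lower counts are therefore not read as a result about the members. Leaving out 1 array gave 9 to 14 with SRCAP siRNA, the lowest without SRCAP siRNA 5-Aza-CdR replicate 1, and 10 to 15 with NC siRNA, the lowest without NC siRNA PBS replicate 2. The median change of the members with NC siRNA (-0.11) was -0.026 in the authors' table, -0.040 without background correction, 0.061 with median scaling, and -0.21 to 0.13 when 1 array was left out, so its sign is not settled. With the replicate block (slide) 1 member was called after SRCAP siRNA under 5-Aza-CdR and 1 under PBS, against 0 and 0. The block gave 16 members higher with SRCAP siRNA and 18 with NC siRNA, and changed no other call than those of members named with it. The added calls were ZNF479 in SRCAP siRNA cells and ZNF560 with both siRNAs. Neither was detected on a PBS array, so these calls describe the members and do not support a difference. ZNF626, ZNF467 and ZNF135 lost their call most often with NC siRNA, under 10, 9 and 8 alternatives. The cause was not tested. Weak signals near the background limit these values.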
